A study of Mus musculus with 14 samples.

Results

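The genes described here code for 10 secreted, non-collagen proteins of the stromal extracellular matrix, Fn1, Sparc, Sparcl1, Dcn, Lum, Bgn, Postn, Fbn1, Lox and Timp3, taken by name from the 27099 rows of a gene count table. All 10 had reads in all 14 libraries and were among the 18152 genes that passed the filter on low counts. RNA of Nes-GFP+ bone marrow stromal cells (BMSCs) was sequenced after Smart-seq2 amplification of sorted cells. AML mice carried a doxycycline-inducible MLL-AF9 oncogene (iMLL-AF9), expressed through the reverse tetracycline transactivator, and the Nes-GFP reporter, and were killed once white blood cell counts were high under doxycycline. Normal mice, wild type for the oncogene by the study's account, also carried the Nes-GFP reporter and drank sucrose water as vehicle, so that AML and doxycycline cannot be told apart. The study used young adult mice of either sex.

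GFP in these mice is driven by regulatory elements of the nestin gene, and by the labels the sort kept GFP+ CD45- CD31- DAPI- cells (the study's methods also give Ter119-), which were split into Nes-GFP high and Nes-GFP low. The groups were AML Nes-GFP high (2 libraries), normal Nes-GFP high (2 libraries), AML Nes-GFP low (4 libraries) and normal Nes-GFP low (6 libraries). Some libraries came from a single mouse and others from pooled mice, without a statement of which, so p-values measure only the spread between these libraries.

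The matrix of the bone marrow holds cells in place, stores growth factors and transmits force. Fibronectin forms fibrils that cells grip through integrins, while SPARC and its relatives bind collagen and modulate adhesion. Small leucine-rich proteoglycans such as decorin, lumican and biglycan coat collagen fibrils or bind growth factors. Periostin is a matricellular protein of bone and its lining, fibrillin-1 builds the microfibrils that also hold latent TGF-beta, lysyl oxidase cross-links collagen and elastin, and TIMP3 is a matrix-bound inhibitor of metalloproteinases. In marrow, osteolineage cells and the stromal niche cells that secrete Cxcl12 and Kitl are known sources of matrix.

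Library totals ran between 5615941 and 11436652 counts, and 14842 to 20197 genes had reads. Levels are given as CPM, counts scaled to a library total, after TMM normalization. Nes was at 32.3 and 26.6 CPM in AML Nes-GFP high libraries, against 0 to 5.69 CPM in AML Nes-GFP low libraries. In normal mice it was at 2.27 and 36.0 CPM in Nes-GFP high libraries, against 0 to 1.28 CPM in Nes-GFP low libraries. Normal Nes-GFP high replicate 1 stood apart, with the fewest genes detected and the lowest Nes of the Nes-GFP high libraries. It also had the highest summed osteolineage markers of the 14 libraries (101352 CPM), and its neutrophil markers summed to 30785 CPM. The part of these in its matrix levels was not tested. All 12 stromal niche markers had reads in every group, and their summed level spanned 1793 to 57627 CPM between libraries. Endothelial markers summed to 1.85 to 91.4 CPM in all libraries, with Tek at 0 in 3 of the 4 groups. Neutrophil markers, of CD45+ cells that the sort should remove, summed to 617 to 84402 CPM, and erythroid markers, of the Ter119+ lineage, to 16.2 to 3905 CPM.

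To show where transcription of the matrix genes begins, RefSeq promoters of build GRCm38.p6 were searched, and 5 of the 10 genes matched (Bgn, Postn, Fbn1, Sparc and Timp3), Postn with a pair of start sites. The 250 bases before the start site are printed for Bgn and for Postn, which holds the one TATA box found. Bgn had a slope on the niche markers, given below, that passed with the whole list but not without Cxcl12. The Bgn window is chrX:73483351-73483600 and that of the downstream Postn start site is chr3:54360857-54361106, both on the plus strand and read 5′ to 3′, with capitals marking GGGCGG on either strand (the GC box) in Bgn and TATAAA in Postn.
Bgn: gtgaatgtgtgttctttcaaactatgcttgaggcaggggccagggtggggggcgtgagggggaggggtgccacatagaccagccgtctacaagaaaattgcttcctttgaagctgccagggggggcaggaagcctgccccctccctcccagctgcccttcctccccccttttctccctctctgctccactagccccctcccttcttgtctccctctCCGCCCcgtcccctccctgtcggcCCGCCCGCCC
Postn: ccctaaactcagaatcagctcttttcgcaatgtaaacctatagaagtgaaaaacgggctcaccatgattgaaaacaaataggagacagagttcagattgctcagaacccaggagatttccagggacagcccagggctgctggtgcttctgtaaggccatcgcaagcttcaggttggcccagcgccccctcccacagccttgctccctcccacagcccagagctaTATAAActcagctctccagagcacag
The Bgn window held 3 matches to GGGCGG on the reverse strand, starting at -34, -10 and -6 from the start site, the last pair overlapping. Fbn1 and Timp3 had 1 match each, Sparc had no match to any motif, and 32.7% of 32851 promoter windows of the same length hold GGGCGG. The TATAAA of Postn began at -26, and 12.4% of all windows hold this motif on either strand. Of the other motifs searched on both strands, the AP-1 site TGANTCA was in none of the windows of the 5 genes and in 6.75% of all windows. The TEAD site CATTCC was likewise in none of theirs and in 12.6% of all. CCAAT was in none of theirs, against 33.8% of all, and the CArG box in none of theirs, against 1.47% of all windows. The windows of Fbn1, Sparc and Timp3 overlap annotated exons and are not printed.

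Per kilobase of exon, Sparc was the highest of the 10 genes, with a median over the 14 libraries of 2294 CPM per kb. It was followed by Bgn (438 CPM per kb), Dcn (220 CPM per kb), Lum (119 CPM per kb) and Fn1 (95.4 CPM per kb), and then by Lox, Fbn1, Timp3, Sparcl1 and Postn, the last at 8.40 CPM per kb. Sparc took 33.1% to 78.8% of the summed CPM of the 10 genes and ranked between 2 and 25 among all genes of a library. The 10 genes together held 0.545% to 4.31% of all counts. Both ends fell on single libraries, AML Nes-GFP low replicate 3 with the lowest share and normal Nes-GFP high replicate 1 with the highest. In these bulk samples, fewer cells of a type and less RNA per cell cannot be told apart.

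**Figure D1:**
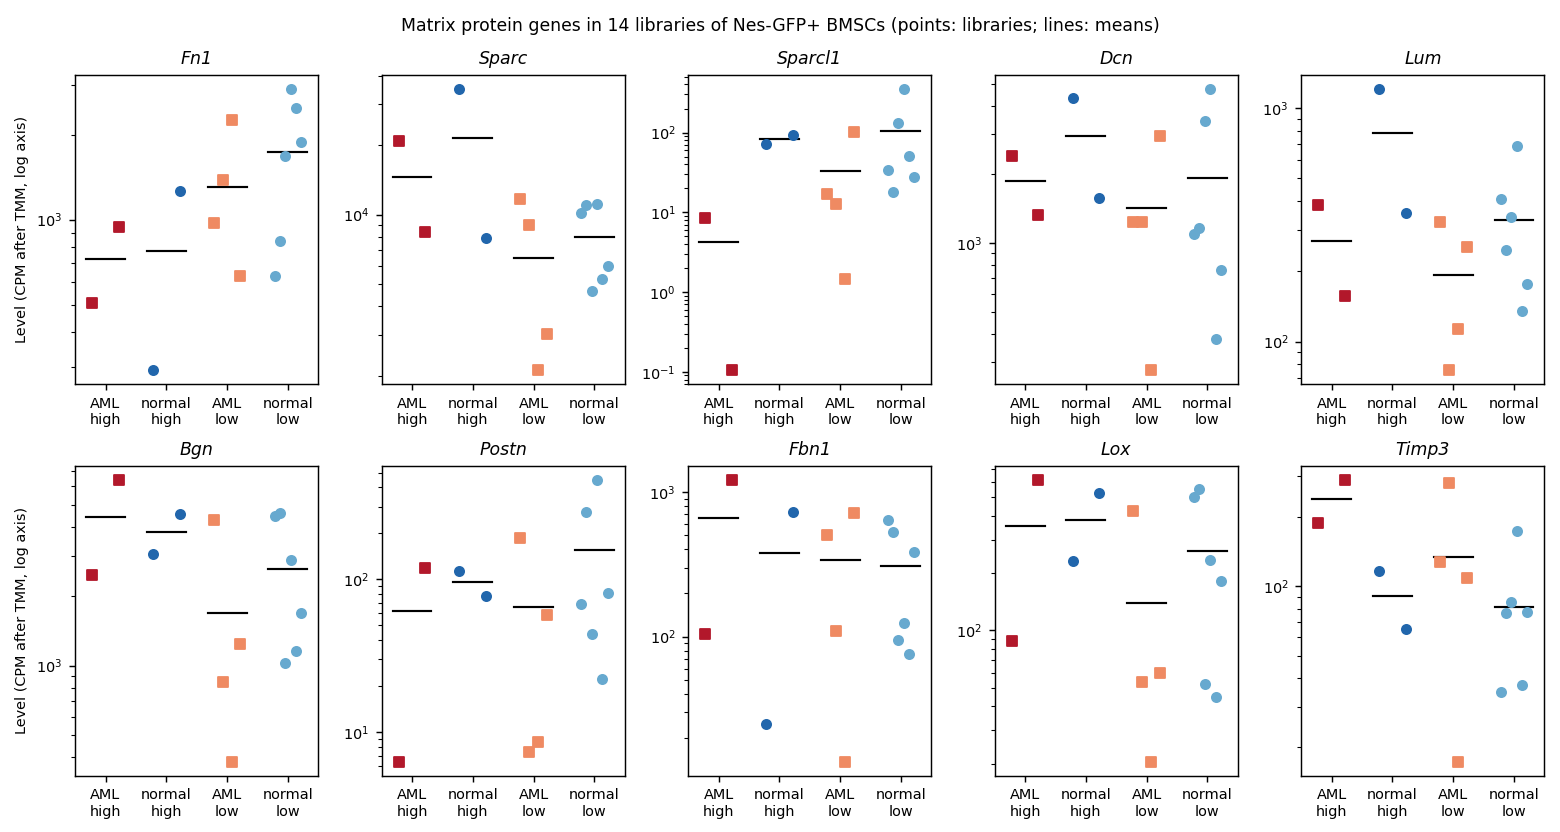
Level of each of the 10 matrix genes (CPM after TMM normalization, log axis) in every library by group; points are libraries and lines are group means, with AML as squares and normal as circles. Sparcl1 at 8.41 and 0.104 CPM in AML Nes-GFP high libraries lies below both normal Nes-GFP high libraries, and Timp3 at 188 and 289 CPM lies above them.

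Fn1 (fibronectin, chromosome 1, 71585520 to 71653200 in GRCm38, minus strand) had 507 and 943 CPM in AML Nes-GFP high libraries, against 293 and 1259 CPM in normal Nes-GFP high libraries. Nes-GFP low libraries had 970, 1377, 2255 and 633 CPM in AML mice, against 632 to 2909 CPM with a median of 1781 CPM in normal mice. No Nes-GFP high library exceeded 1259 CPM, while both Nes-GFP low groups had libraries well above that level, and all groups overlapped. Nes-GFP high cells had the lower mean in both kinds of mice, by a log2 fold change of -0.85 ± 0.74 (SE) in AML mice and -1.16 ± 0.72 (SE) in normal mice, with edgeR adjusted p = 0.734 and 0.531. The log2 fold change in normal mice was -0.61 without normal Nes-GFP high replicate 1 and -2.50 without replicate 2, and that in AML mice ran between -1.38 (without AML Nes-GFP high replicate 2) and -0.46 (without AML Nes-GFP low replicate 3).

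Sparc (osteonectin, a collagen-binding protein abundant in bone, chromosome 11, 55394500 to 55423183, minus strand) had 20773 and 8402 CPM in AML Nes-GFP high libraries, against 35099 and 7895 CPM in normal Nes-GFP high libraries. Nes-GFP low libraries had 11721, 8978, 2117 and 3030 CPM in AML mice, against 4689 to 11086 CPM with a median of 8053 CPM in normal mice. One library of each Nes-GFP high pair stood above all Nes-GFP low libraries and the other lay within their range. In normal mice the Nes-GFP high mean of 21497 ± 19236 CPM (SD, n = 2) compared with 8022 ± 3005 CPM in Nes-GFP low (SD, n = 6), a log2 fold change of 1.42 ± 0.63 (SE). This was the sole matrix gene with an unadjusted p below the threshold of 0.05 in any of the 4 group comparisons (edgeR adjusted p = 0.430), where 2.1% of all genes had so small a p and were higher. Without normal Nes-GFP high replicate 1 the log2 fold change was -0.17 (edgeR adjusted p = 0.951). In AML mice the Nes-GFP high over low log2 fold change of Sparc was 1.17 ± 0.70 (SE; edgeR adjusted p = 0.606), and 0.38 without AML Nes-GFP high replicate 1.

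Sparcl1 (the SPARC-like protein hevin, chromosome 5, 104079111 to 104113733, minus strand) had 8.41 and 0.104 CPM in AML Nes-GFP high libraries, against 71.3 and 93.3 CPM in normal Nes-GFP high libraries. The pairs did not overlap. The log2 fold change was -4.27 ± 2.05 (SE), with an edgeR adjusted p = 0.421, and DESeq2 gave -4.42 with adjusted p = 0.0758, so that the difference did not pass in either. Among all genes tested, 11.5% had AML libraries wholly below normal ones in this comparison. In Nes-GFP low libraries Sparcl1 had 17.0, 12.7, 1.48 and 101 CPM in AML mice, against 17.9 to 355 CPM with a median of 42.4 CPM in normal mice. Of the 4 AML Nes-GFP low libraries, 3 lay below every normal one and replicate 4 lay within their range, with a log2 fold change of -1.64 ± 1.23 (SE; edgeR adjusted p = 0.9999). The AML effect differed between Nes-GFP high and low cells by -2.63 ± 2.19 on the log2 scale (SE; edgeR interaction, adjusted p = 0.844). The Nes-GFP low difference was -3.29 without AML replicate 4 and -0.67 without normal replicate 4 of that gate, while that between the gates was -7.80 when AML Nes-GFP high replicate 1 was left out and -1.01 when AML Nes-GFP low replicate 4 was. Without AML Nes-GFP high replicate 1 the Nes-GFP high difference was -9.47, and without replicate 2 it was -3.32. Each of these fits left a single AML Nes-GFP high library. The values of -9.47 and -7.80 rest on the library at 0.104 CPM, a level near the floor of detection.

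Dcn (decorin, chromosome 10, 97479609 to 97518143, plus strand) had 2401 and 1328 CPM in AML Nes-GFP high libraries, against 4318 and 1583 CPM in normal Nes-GFP high libraries. It had 1234, 1236, 277 and 2958 CPM in AML Nes-GFP low libraries, against 380 to 4755 CPM with a median of 1131 CPM in normal ones. AML libraries reached neither the highest value of the normal Nes-GFP high pair nor that of the Nes-GFP low set, yet the groups overlapped. Lum (lumican, the neighbour of Dcn on chromosome 10, 97565128 to 97572703, plus strand) had 384 and 157 CPM in AML Nes-GFP high libraries, against 1212 and 354 CPM in normal ones. In Nes-GFP low libraries Lum had 326, 75.4, 113 and 256 CPM in AML mice, against 135 to 687 CPM with a median of 295 CPM in normal mice. The AML over normal log2 fold change of Lum was -1.53 ± 0.91 (SE) in Nes-GFP high and -0.79 ± 0.59 (SE) in Nes-GFP low cells, with edgeR adjusted p = 0.510 and 0.9999. The Nes-GFP high value was -0.29 without normal Nes-GFP high replicate 1 and -2.35 without AML Nes-GFP high replicate 1. Its Nes-GFP low value was -0.44 without normal Nes-GFP low replicate 4 and -1.22 without AML Nes-GFP low replicate 1. That of Dcn was -0.66 ± 1.12 (SE) in Nes-GFP high and -0.44 ± 0.73 (SE) in Nes-GFP low cells, and it turned to 0.34 without normal Nes-GFP high replicate 1 and to 0.062 without normal Nes-GFP low replicate 4.

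Bgn (biglycan, chromosome X, 73483602 to 73495933, plus strand) had 2478 and 6404 CPM in AML Nes-GFP high libraries, against 3061 and 4571 CPM in normal Nes-GFP high libraries. In Nes-GFP low libraries it had 4298, 848, 383 and 1241 CPM in AML mice, against 1027 to 4591 CPM with a median of 2278 CPM in normal mice. Of the 4 AML Nes-GFP low libraries, 3 lay below every Nes-GFP high library, and the groups overlapped. For Nes-GFP high over low, the log2 fold change of Bgn was 1.39 ± 0.82 (SE) in AML mice and 0.54 ± 0.78 (SE) in normal mice, with edgeR adjusted p = 0.605 and 0.855. The value in AML mice was 0.55 without AML Nes-GFP high replicate 2 and 2.46 without AML Nes-GFP low replicate 1, and that in normal mice was 0.28 without normal Nes-GFP high replicate 2. Postn (periostin, chromosome 3, 54361109 to 54391037, plus strand) had 6.43 and 118 CPM in AML Nes-GFP high libraries, against 114 and 77.6 CPM in normal ones. It had 188, 7.38, 8.67 and 58.5 CPM in AML Nes-GFP low libraries, against 22.3 to 448 CPM with a median of 75.1 CPM in normal ones. AML libraries thus held the 3 lowest Postn values of the series, and the log2 fold change in Nes-GFP low cells was -1.26 ± 1.10 (SE; edgeR adjusted p = 0.9999). It was -2.74 without AML Nes-GFP low replicate 1 and -0.59 without normal Nes-GFP low replicate 4.

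Fbn1 (fibrillin-1, chromosome 2, 125300594 to 125507993, minus strand) had 104 and 1210 CPM in AML Nes-GFP high libraries, against 24.8 and 730 CPM in normal Nes-GFP high libraries. It had 506, 109, 13.7 and 718 CPM in AML Nes-GFP low libraries, against 75.9 to 643 CPM with a median of 254 CPM in normal ones. Its highest value was 88.6 times its lowest over the 14 libraries, against 9.93 times for Fn1, and every group held both high and low libraries. Lox (lysyl oxidase, chromosome 18) had 87.6 and 617 CPM in AML Nes-GFP high libraries, against 233 and 525 CPM in normal ones. It had 422, 53.5, 20.5 and 60.1 CPM in AML Nes-GFP low libraries, against 44.8 to 551 CPM with a median of 208 CPM in normal ones. In AML Nes-GFP low cells replicate 1 alone carried a high Lox level, and the log2 fold change of -0.91 ± 0.94 (SE) became -2.60 without it and -0.54 without normal Nes-GFP low replicate 2.

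Timp3 (chromosome 10, 86300372 to 86349506, plus strand) had 188 and 289 CPM in AML Nes-GFP high libraries, against 117 and 65.1 CPM in normal Nes-GFP high libraries. The AML libraries lay above both normal ones, as those of 16% of all genes tested did. The log2 fold change was 1.39 ± 1.01 (SE; edgeR adjusted p = 0.645) and ran between 0.99 and 1.99 when single libraries were left out. In Nes-GFP low libraries Timp3 had 128, 281, 17.3 and 109 CPM in AML mice, against 34.7 to 174 CPM with a median of 77.0 CPM in normal mice. These groups overlapped, with a log2 fold change of 0.72 ± 0.63 (SE; edgeR adjusted p = 0.9999) that was 0.063 without AML Nes-GFP low replicate 2 and 1.10 without normal Nes-GFP low replicate 4. Exons of Timp3 overlap those of Syn3 on the other strand. Use of strand in counting is not given in the sources used here.

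Taken as a list, 0 of the 10 genes were called at an adjusted p under 0.05 in any of the 5 comparisons, by edgeR or by DESeq2. edgeR called 0 genes, 0% of all those tested, in each comparison, with a smallest adjusted p of 0.0987 for AML over normal in Nes-GFP high cells, 0.478 in Nes-GFP low cells, 0.230 for Nes-GFP high over low in normal mice, 0.113 in AML mice and 0.181 for how far the AML effect differed between the gates. At an unadjusted p under 0.05, edgeR had 1384 genes higher (7.62% of all) and 825 lower (4.54%) for AML over normal in Nes-GFP high cells, and 480 higher (2.64%) and 2.9% lower in Nes-GFP low cells. Between the gates (Nes-GFP high over low) it had 382 higher (2.1%) and 1660 lower (9.14%) in normal mice and 453 higher (2.5%) and 1176 lower (6.48%) in AML mice. For the difference of the AML effect it had 1164 higher (6.41%) and 644 lower (3.55%). Sparc in normal mice was the one matrix gene among these. DESeq2 gave an adjusted p to only part of the genes tested, and its shares are of those genes. At an adjusted p under 0.05 it called 6.24% of 15167 such genes higher and 4.27% lower for AML over normal in Nes-GFP high cells. In Nes-GFP low cells it called 0.208% of 17326 such genes higher and 0.473% lower. Between the gates it called 0.621% higher and 10.4% lower in normal mice and 0.601% higher and 6.45% lower in AML mice, and for the difference 3.28% higher and 1.79% lower.

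For AML over normal in Nes-GFP high cells, 3 of the 10 fitted log2 fold changes were above 0 and 7 below, beside 52.1% and 45% of all genes, and their median was -0.33, beside 0.08 over all genes. These counts were 4 above and 6 below without normal Nes-GFP high replicate 1 (median -0.096), 5 and 5 without normal replicate 2 (median -0.21), 6 and 4 without AML Nes-GFP high replicate 1 (median 0.27) and 1 and 9 without AML replicate 2 (median -0.87). In Nes-GFP low cells 2 were above 0 and 8 below, beside 50.2% and 49.8% of all genes, with a median of -0.54, beside 0.0034 over all genes, and 1 or 2 were above 0 when any single library was left out (median -1.003 without AML Nes-GFP low replicate 1 and -0.32 without normal Nes-GFP low replicate 4). Timp3 and Fbn1 were above 0 in both, and Bgn was above 0 in Nes-GFP high cells. For Nes-GFP high over low, 7 were above 0 and 3 below in normal mice, beside 41.1% and 58.4% of all genes, with a median of 0.41, beside -0.27 over all genes. Without normal Nes-GFP high replicate 1 this became 3 above and 7 below, with a median of -0.23, as Sparc, Dcn, Lum and Timp3 turned to -0.17, -0.43, -0.060 and -0.46. Without normal Nes-GFP high replicate 2 it was 5 and 5, with a median of 0.084, and without normal Nes-GFP low replicate 3 or 5 the median was 0.25 or 0.24. In AML mice 7 were again above 0 and 3 below, beside 46.1% and 53.2% of all genes, with a median of 0.66, beside -0.10 over all genes. Without AML Nes-GFP high replicate 2 this became 5 and 5, with a median of -0.093, and without AML Nes-GFP low replicate 1 or 3 the median was 1.10 or 0.38. With all libraries, Fn1, Sparcl1 and Postn were below 0 in both kinds of mice, while Sparc, Dcn, Lum, Bgn, Fbn1, Lox and Timp3 were above 0, with no call in any. How far the AML effect differed between the gates was fitted above 0 for 6 genes and below 0 for 4, beside 53.5% and 46.5% of all genes. These comparisons share libraries with each other.

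Apart from Sparcl1 and Timp3 in Nes-GFP high cells, 0 of the 10 genes had groups that did not overlap. In the other comparisons, 0.441% of all genes were higher and 0.667% lower without overlap for AML over normal in Nes-GFP low cells. Between the gates, 3.48% were higher and 7.85% lower without overlap in normal mice, and 6.9% were higher and 8.84% lower in AML mice.

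**Figure D2:**
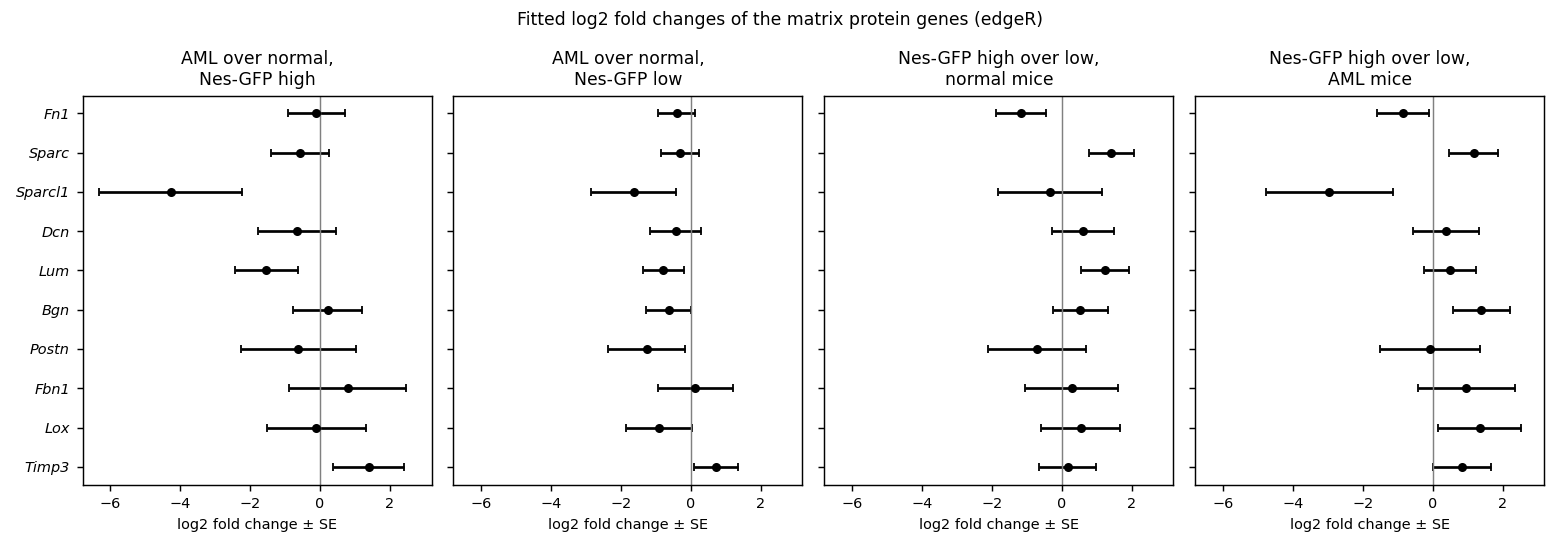
Fitted log2 fold changes (points) with their SE (bars) of the 10 matrix genes in the 4 group comparisons, with AML over normal on the left and Nes-GFP high over low on the right. None passed the adjusted threshold; Sparcl1 in Nes-GFP high cells, at -4.27 ± 2.05, lies farthest from 0.

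When the 4 group means of each gene were put in order, the ranges of neighbouring groups overlapped in all 30 neighbouring pairs. This was not counted over all genes, so nothing particular to the 10 genes is read from it. In AML Nes-GFP low cells the median SD of the 10 genes on the log2 scale was 1.56, beside 1.08 over the 10754 genes averaging 10 CPM or more, and 8 of the 10 genes lay above that median. In normal Nes-GFP low cells it was 1.15, beside 1.002 over all such genes. In Nes-GFP high cells it was 0.946, beside 0.922, in AML mice and 0.926, beside 1.06, in normal mice, with 6 and 4 of the 10 genes above the median of all such genes. AML Nes-GFP low replicate 3 was the lowest of the 14 libraries for Sparc, Bgn, Dcn, Lox, Fbn1 and Timp3. Fn1 went the other way in that library, at 2255 CPM, the highest of its group. That library also had the highest summed macrophage and monocyte markers (32580 CPM) and the lowest summed osteolineage and niche markers (955 and 1793 CPM), and the part of these in its matrix levels was not tested.

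Within the groups, Lox, Fbn1 and Bgn followed the stromal niche markers (Cxcl12, Lepr, Kitl, Adipoq and 8 others) from library to library, a relation that did not pass for the other 7 genes. A slope on the log2 summed CPM of a marker list was fitted across all genes with the 4 groups as terms, a test added after the values had been seen. For each doubling of the niche markers, Lox rose by 0.82 ± 0.11 on the log2 scale (SE; edgeR adjusted p = 0.00434), Fbn1 by 0.96 ± 0.21 (adjusted p = 0.0337) and Bgn by 0.52 ± 0.09 (adjusted p = 0.0148). Over all genes, 1.68% were called with a positive slope and 0.436% with a negative one, and no matrix gene had a called negative slope. Postn had a slope of 0.74 ± 0.30 (SE; edgeR adjusted p = 0.259), and the other 6 genes had slopes between -0.58 and 0.05 that did not pass. Lox and Bgn kept their calls when each library was left out in turn, while Fbn1 lost its call in 11 of 14 such fits (adjusted p between 0.0162 and 0.0837, slopes between 0.85 and 1.04) and kept it without AML Nes-GFP low replicate 3 or 4 or normal Nes-GFP low replicate 6. Not all of these fits are distinct, since the library left of a Nes-GFP high pair adds nothing to a within-group slope. The Lox slope was 0.86 with AML Nes-GFP high replicate 1 or 2 left out, and 0.87 with normal Nes-GFP high replicate 1 or 2 left out. Without Cxcl12, the most abundant gene of the list, Lox still passed (slope 0.91, edgeR adjusted p = 0.0246) and Bgn and Fbn1 did not (adjusted p = 0.0512 and 0.107).

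**Figure D3:**
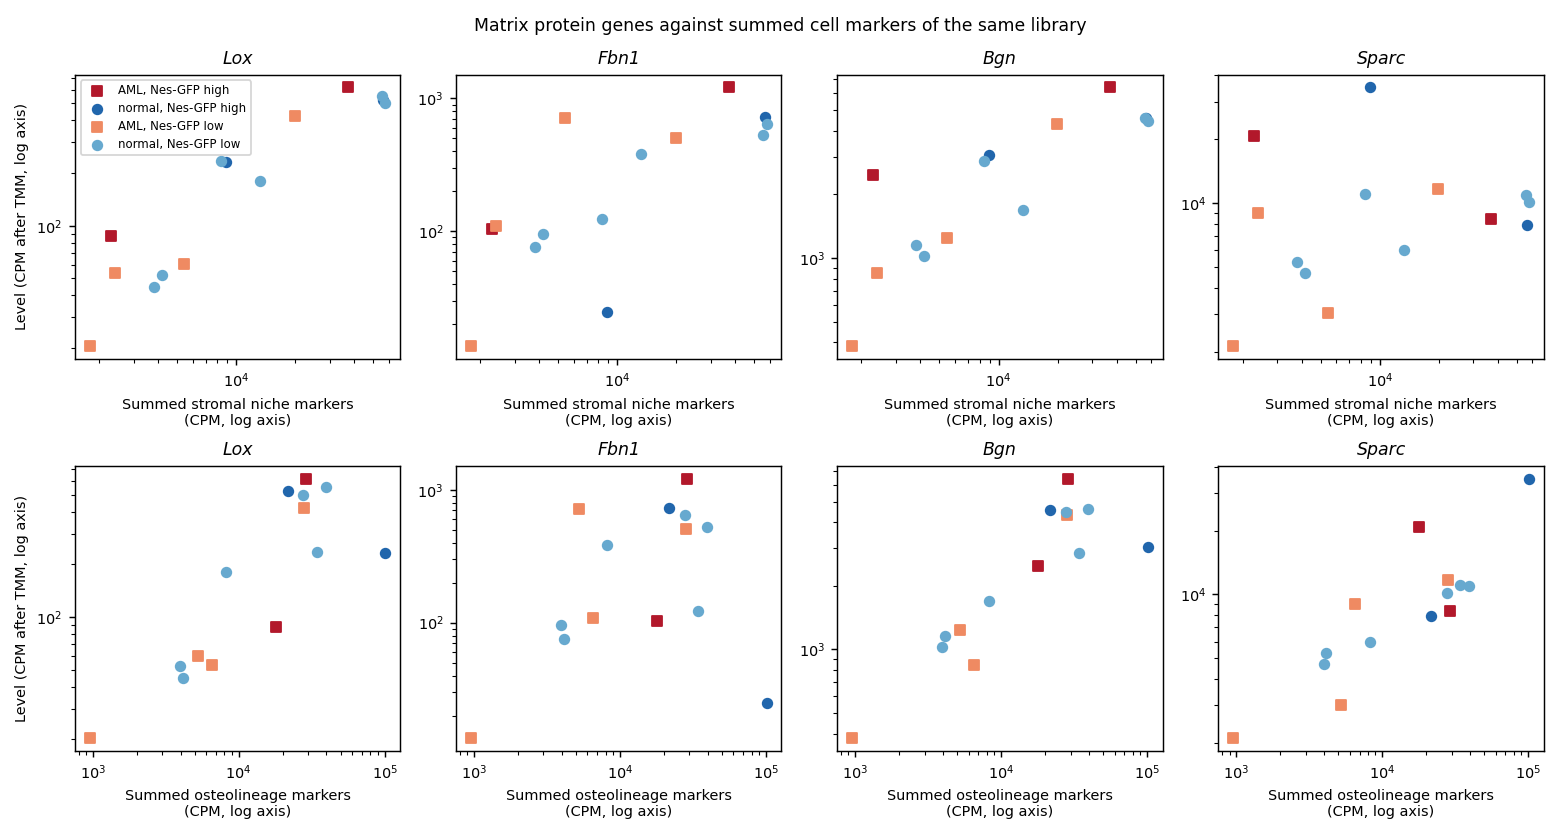
Lox, Fbn1, Bgn and Sparc (CPM after TMM, log axis) against the summed CPM of stromal niche markers (top) and of osteolineage markers (bottom, log axis) of the same library; each point is a library. Lox and Bgn climb with the niche markers over their span of 1793 to 57627 CPM. No slope on the osteolineage markers passed the adjusted threshold, though that of Bgn was 0.60 there and 0.52 on the niche markers.

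On the osteolineage markers (Bglap, Ibsp, Col1a1, Spp1 and 6 others), no matrix gene passed. The slope of Sparc on the osteolineage list was 0.47 ± 0.11 (SE; edgeR adjusted p = 0.224), against 0.05 ± 0.15 on the niche list; the difference of the slopes was not tested. Bgn, Lox and Postn had slopes of 0.60, 0.84 and 0.89 on the osteolineage list, with edgeR adjusted p of 0.135, 0.224 and 0.278, where 0.00551% of all genes passed with a positive slope and 0% with a negative one. The unadjusted edgeR p of Bgn was 0.00017 on this list and 7.8e-05 on the niche list, with slopes of 0.60 and 0.52. Adjustment depends on all genes fitted on a list, so its call on the niche list alone does not separate Bgn from the osteolineage markers. As a description over the 14 libraries, which share depth and composition between genes, Pearson's r of Sparc with the osteolineage sum was 0.87 and Spearman's rho 0.81, and r was 0.72 without the 2 libraries farthest from the median of the sum and 0.99 within the 6 normal Nes-GFP low libraries. Lox and the niche sum had r of 0.93 and rho of 0.88 over the 14 libraries, with r of 0.92 without the 2 farthest. The summed CPM of the 10 genes, dominated by Sparc, had r of 0.94 with the osteolineage sum and 0.38 with the niche sum (rho 0.84 and 0.31). Without the 2 libraries farthest from the median of the marker sum these r were 0.87 and 0.41.

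On the other lists, Dcn and Sparcl1 had slopes of 0.58 ± 0.14 and 0.86 ± 0.29 on fibroblast markers (SE; edgeR adjusted p = 0.286 and 0.441), where 0% of all genes passed. Fbn1, Lox and Bgn had slopes of -0.62, -0.44 and -0.29 on macrophage and monocyte markers (edgeR adjusted p = 0.0778, 0.207 and 0.230), where 0.303% of all genes passed with a negative slope and 2% with a positive one. On neutrophil markers Fbn1 had a slope of -0.62 (edgeR adjusted p = 0.0833), where 0.226% of all genes passed with a negative and 1.21% with a positive slope. On pericyte and smooth muscle markers their slopes were 1.71, 1.11 and 0.80 (edgeR adjusted p = 0.0552, 0.0713 and 0.0515), where 0.706% of all genes passed with a positive slope and 0.0331% with a negative one. Slopes on Schwann cell markers, whose sum ran between 113 and 545 CPM, were above 0 for 9 of the 10 genes. None passed, as for 0% of all genes. The lowest sum was that of AML Nes-GFP low replicate 3. On chondrocyte markers 0.011% of all genes and no matrix gene passed with a positive slope. The lists were fitted one at a time, so a slope on one is not separate from a slope on another.

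**Figure D4:**
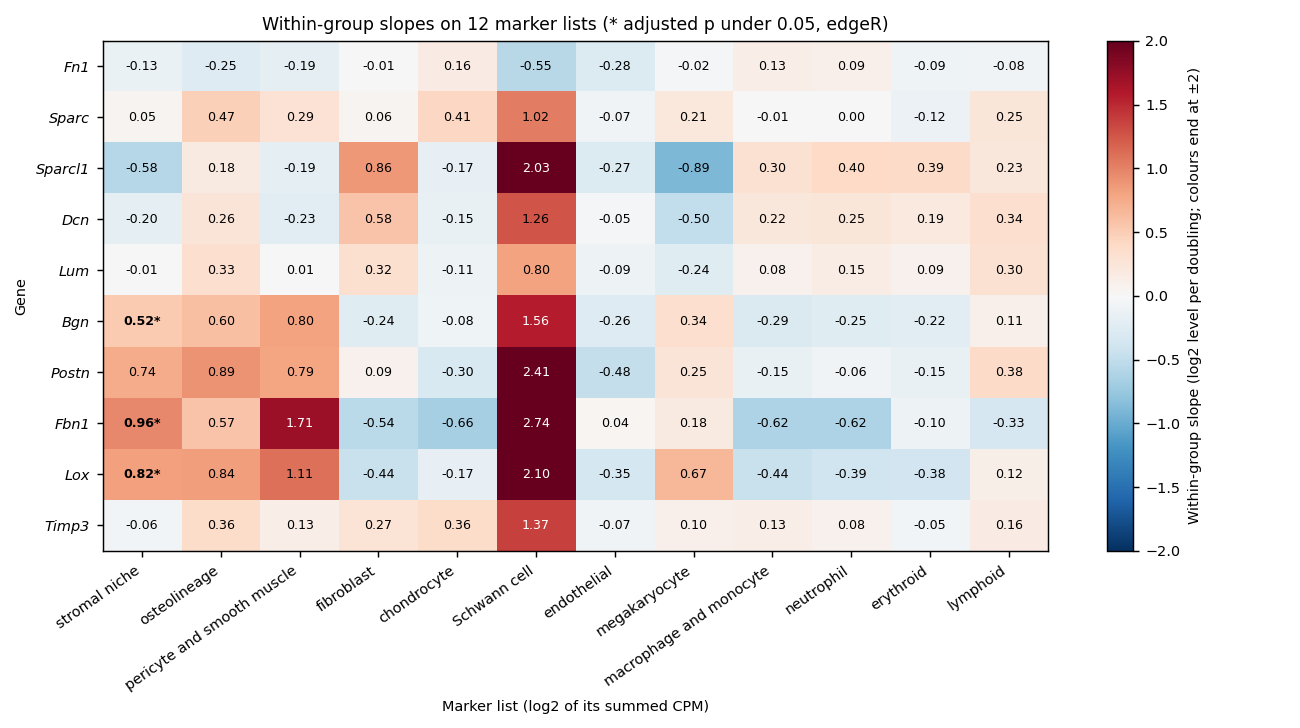
Within-group slopes of the 10 matrix genes (rows) on the log2 summed CPM of 12 marker lists (columns), as log2 change per doubling of the list; red is positive, blue negative, and bold numbers with an asterisk passed an edgeR adjusted p of 0.05. Lox, Fbn1 and Bgn on the stromal niche list, at 0.82, 0.96 and 0.52, are the cells that passed.

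Between the matrix genes, Bgn and Lox were the most alike pair, with r of 0.96 and rho of 0.97 over the 14 libraries and r of 0.97 in the 6 normal Nes-GFP low libraries, again as a description. Dcn and Lum had r of 0.73, and Sparc and Sparcl1, of one protein family, had r of 0.11. Fn1 had r below 0 with 8 of the other 9 genes, the lowest being -0.60 with Sparc. Among all genes averaging 10 CPM or more, the one most like each matrix gene by Spearman's rho was Loxl3 for Bgn (0.96), P3h3 for Lox (0.96), Col4a1 for Fbn1 (0.96), Ifitm5 for Sparc (0.93), Ncapd2 for Fn1 (0.93) and Slc7a11 for Sparcl1 (0.91). For Dcn it was Apod (0.84), for Postn Antxr2 (0.84), for Lum Mydgf (0.83) and for Timp3 Med25 (0.82). The mean of the 10 genes was most like Cgref1 (0.93), Cthrc1 and H2-Q10 (0.88 each), Col1a2 (0.87), Plxdc2 and Mpdz (0.86 each), Hoxc6 (0.85) and Nrep (0.85).

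Other genes of the matrix were taken from 10 lists of the same families, 144 distinct genes tested. edgeR called none of them in any of the 4 group comparisons. At an unadjusted p under 0.05 there were 13 higher (9.03%) and 7 lower (4.86%) for AML over normal in Nes-GFP high cells, beside 7.62% and 4.54% of all genes, and 2 higher (1.39%) and 8 lower (5.56%) in Nes-GFP low cells, beside 2.64% and 2.9%. Between the gates there were 4 higher (2.78%) and 13 lower (9.03%) in normal mice, beside 2.1% and 9.14% of all genes, and 4 higher (2.78%) and 7 lower (4.86%) in AML mice, beside 2.5% and 6.48%. DESeq2 called 9 higher (6.25%) and 6 lower (4.17%) for AML over normal in Nes-GFP high cells, beside 6.24% and 4.27% of all genes it gave an adjusted p. In Nes-GFP low cells DESeq2 called none, beside 0.208% and 0.473% of such genes. Shares of the 144 also count genes without a DESeq2 adjusted p, so the bases of these shares differ. Between the gates DESeq2 called 0 higher and 12 lower (8.33%) in normal mice, beside 0.621% and 10.4% of the genes it gave an adjusted p. In AML mice it called 1 higher (0.694%) and 8 lower (5.56%), beside 0.601% and 6.45%. The median log2 fold changes were 0.35, -0.51, -0.28 and 0.76, beside 0.08, 0.0034, -0.27 and -0.10 over all genes. For AML over normal, 88 of the 144 were above 0 in Nes-GFP high cells (61.1%, beside 52.1% of all genes) and 45 in Nes-GFP low cells (31.2%, beside 50.2%). The small leucine-rich proteoglycan list, relatives of Dcn, Lum and Bgn, had 10 of 14 and 3 of 14 above 0 in those comparisons, and the fibrillin and elastic fibre list 7 of 20 and 5 of 20. These counts and medians rest on the same libraries as those of the 10 genes and are given without leave-one-out values.

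Among these genes, those with the smallest p for AML over normal in Nes-GFP high cells included 5 with reads in every library. Chad (chondroadherin, a leucine-rich protein of cartilage) had 40405 and 6754 CPM in AML Nes-GFP high libraries, against 824 and 557 CPM in normal ones (log2 fold change 5.10 ± 1.37, SE; edgeR adjusted p = 0.244). It is also a chondrocyte marker. Summed with Chad included, that list stood at 56080 and 12517 CPM in AML Nes-GFP high libraries, against 5664 and 10656 CPM in normal ones. Chad made up most of the sum in both AML libraries, so the sum is not separate from it. The part of chondrocytes in the difference was not tested. Ctgf, connective tissue growth factor, a matricellular protein, had 1072 and 494 CPM in AML libraries, against 77.2 and 121 CPM in normal ones (log2 fold change 2.98, edgeR adjusted p = 0.310). Itgav, the integrin alpha chain of vitronectin and fibronectin receptors, had 50.9 and 55.4 CPM in AML libraries, against 4.28 and 2.69 CPM in normal ones (log2 fold change 3.93, edgeR adjusted p = 0.310). Mfap3, a microfibril-associated protein, had 2.23 and 2.09 CPM in AML libraries, against 40.1 and 244 CPM in normal ones (log2 fold change -6.03, edgeR adjusted p = 0.176). Pcolce2, an enhancer of procollagen processing, had 681 and 84.6 CPM in AML libraries, against 70.03 and 66.98 CPM in normal ones (log2 fold change 2.48, edgeR adjusted p = 0.383).

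Low or absent genes made up the rest of those named by rule. In Nes-GFP high libraries, Wisp3 had 160 and 20.99 CPM in AML mice, against 0 and 1.13 CPM in normal mice. Fstl3, of the follistatin family, had 9.89 and 21.9 CPM in AML mice and was at 0 in both normal libraries. Hapln3, a hyaluronan link protein, had 30.0 and 0.209 CPM in AML mice and was at 0 in both normal libraries. Mmp3, a stromelysin, was at 0 in both AML libraries and had 0 and 39.9 CPM in normal ones. Their edgeR adjusted p ran between 0.310 and 0.421. DESeq2 gave an adjusted p of 8.09e-06 for Mfap3, 0.00296 for Wisp3, 0.0157 for Itgav, 0.0164 for Fstl3, 0.0483 for Ctgf and 2.69e-11 for Mmp3, the last with reads in a single library of the 4. Pcolce2 and Hapln3 did not pass in DESeq2 (adjusted p = 0.148 and 0.0709), and it gave none for Chad.

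In Nes-GFP low libraries, Adamts7 (a metalloproteinase) had at most 0.103 CPM in AML mice, against 0.303 to 30.4 CPM in normal mice. Bcan (brevican) was at 0 in all AML libraries and reached 27.8 CPM in normal ones. Lama3, a laminin chain, had at most 0.618 CPM in AML mice, against 0.183 to 36.7 CPM in normal mice. Optc (opticin) had 0.206 to 26.9 CPM in AML mice and was at 0 in all normal libraries. Their edgeR adjusted p ran between 0.478 and 0.772. Bcan and Lama3 did not pass in DESeq2 either (adjusted p = 0.0753 and 0.178), and it gave none for Adamts7 and Optc.

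For Nes-GFP high over low in normal mice, Reck, a membrane inhibitor of metalloproteinases, had 0 and 1.56 CPM in Nes-GFP high libraries, against 14.3 to 96.3 CPM in Nes-GFP low libraries. Tmeff2 had 0.126 and 0.708 CPM in Nes-GFP high libraries, against 0.404 to 94.6 CPM, and Tll1 was at 0 in both, against 0.280 to 14.4 CPM in Nes-GFP low libraries. In AML mice, Itgb3, an integrin beta chain, had 0.124 and 0.104 CPM in Nes-GFP high libraries, against 3.09 to 18.8 CPM in Nes-GFP low libraries. Mfap5 had 0 and 0.209 CPM against 0.499 to 64.3 CPM, Lamb3 was at 0 in both against 0.325 to 8.88 CPM, and Adamts9 had 1.48 and 99.2 CPM against 1.02 to 7.48 CPM in Nes-GFP low libraries. Adjusted p of these 7 genes in edgeR ran between 0.318 and 0.524. DESeq2 gave an adjusted p of 0.00035 for Reck, 0.00122 for Tmeff2 and 0.0185 for Tll1 in normal mice, and of 0.00211 for Itgb3, 0.00638 for Mfap5 and 0.0484 for Adamts9 in AML mice, with none given for Lamb3.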

How the data were processed

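Nes-GFP+ BMSC RNA was amplified by Smart-seq2. Per the labels and methods, the authors aligned reads with TopHat2 (2.1.0) to GRCm38/mm10 after Trim Galore (0.4.1) and deposited whole-number read counts per gene from featureCounts, not normalized. Amplification without molecular identifiers means that reads are not independent molecules. Of the table's columns, 14 matched a labelled library, and 2 columns of no sample given here were not used. The 10 genes and all lists were chosen with earlier results of these data known.

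Counts were tested with edgeR (4.0.16, R 4.3.3): TMM, filterByExpr with a minimum count of 10, and the quasi-likelihood test on the means of the 4 groups over all 14 libraries, two-sided, with Benjamini-Hochberg adjustment over all genes tested and a threshold of 0.05. Per-library values are CPM after TMM. The scripts were tested on simulated data. DESeq2 (1.42.0), other scalings, filters and library sets were alternatives. Gene positions and exon lengths are from GENCODE M21, and promoters from RefSeq. Genes named beside the 10 and Nes were the 2 genes of each list with the smallest unadjusted p, and the genes most alike in Spearman's rho; Cxcl12, Kitl and the other markers come from the marker lists, and Syn3 was named after its overlap was seen.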

Additional observations from a re-analysis of the deposited data

Results flagged for a closer look

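Of 20 sets of values tested for a library standing apart (10 genes in the groups of 4 and of 6 libraries), 4 held one. Its gap to its nearest neighbour in CPM was large for the range of the group. Chance gives about 1 in 20 only for values with a Gaussian spread, which was not tested for CPM. The gaps were not tested on the log2 scale, so no conclusion is drawn from the count flagged. Sparcl1 was highest in AML Nes-GFP low replicate 4, at 101 CPM, where the other libraries of that group had at most 17.0 CPM. Sparcl1 was also highest in normal Nes-GFP low replicate 4, at 355 CPM. Timp3 was highest in the same normal library, at 174 CPM. Lox was highest in AML Nes-GFP low replicate 1, at 422 CPM, where the other libraries of that group had at most 60.1 CPM.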

How the results depend on the processing

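None of the 10 genes was called in a group comparison under any alternative, and 821 of 860 recomputed fold changes kept their direction. Those 860 include fits without a library of a group not compared. Of the 39 that turned, 29 came from leaving out a library. Only 19 of the 41 results for these genes kept their direction under every alternative. Counts of all genes called were 0 in edgeR. DESeq2 called 946 higher and 647 lower for AML over normal in Nes-GFP high cells, 36 and 82 in Nes-GFP low cells, 98 and 1639 for Nes-GFP high over low in normal mice, 93 and 997 in AML mice, and 497 and 271 for the difference. Testing only genes averaging 10 CPM or more gave 1 lower gene for AML over normal in Nes-GFP high cells. Without single libraries, the edgeR counts ran between 0 and 169 higher and 0 and 25 lower for AML over normal in Nes-GFP high cells, 0 and 11 higher and 0 and 178 lower for Nes-GFP high over low in normal mice, 0 and 1 lower in AML mice, and 0 and 132 higher and 0 and 12 lower for the difference. The Nes-GFP high groups hold 2 libraries each, and a library left alone was taken to vary as the others do.

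Replicate numbers are shared between groups, but deviations of same-numbered libraries had r between -0.20 and 0.50, so the numbers were not taken to pair libraries. With a replicate block edgeR called 0 genes, and the sign turned for Fn1 (0.081) for AML over normal in Nes-GFP high cells, for Fbn1 (-0.45) in Nes-GFP low cells, for Timp3 (-0.15), Lox (-0.70), Fbn1 (-1.52), Sparcl1 (1.12) and Bgn (-0.37) for Nes-GFP high over low in normal mice, and for Fbn1 (-0.16) in AML mice, all as log2 fold changes. Postn for Nes-GFP high over low in AML mice was 0.020 with DESeq2 and 0.020 with its size factors.

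Leave-one-out ranges of log2 fold change that cross 0 were, for AML over normal in Nes-GFP high cells, -1.39 to 0.98 for Sparc, -1.26 to 0.34 for Dcn, -2.14 to 0.69 for Lox, -0.68 to 1.26 for Fn1, -1.88 to 4.68 for Fbn1, -3.94 to 0.28 for Postn and -0.66 to 0.73 for Bgn. In Nes-GFP low cells they were -1.06 to 0.062 for Dcn and -0.55 to 0.53 for Fbn1. For Nes-GFP high over low in normal mice they were -0.17 to 2.19 for Sparc, -0.43 to 1.22 for Dcn, -0.46 to 0.59 for Timp3, -0.11 to 0.90 for Lox, -3.57 to 1.08 for Fbn1, -0.54 to 0.64 for Sparcl1 and -0.060 to 1.92 for Lum, and in AML mice -0.072 to 1.02 for Dcn, -0.66 to 3.01 for Lox, -1.67 to 1.88 for Fbn1, -3.34 to 1.41 for Postn and -0.27 to 1.01 for Lum. The correlation of the 10 genes with the niche markers was 0.68 for their mean log2 level, against 0.38 for their sum. Slopes on the niche list without Cxcl12 were 0.98 for Fbn1 and 0.55 for Bgn, neither passing, and without single libraries 0.85 to 1.04 for Fbn1. The causes of these changes were not tested.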
